A study of Bos taurus with 8 samples.

Results

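The miR-30 family was followed through 8 small RNA libraries of cattle, 4 made from sera and 4 from exosomes isolated out of the same sera. Its members were taken by name, as every listed bovine miRNA called miR-30a to miR-30f with or without an arm suffix. This gave 7 of the 534 miRNAs listed, namely miR-30a-5p, miR-30b-5p, miR-30b-3p, miR-30c, miR-30d, miR-30e-5p and miR-30f. Reads were found for 6 of them. The serum and exosome libraries came from 4 healthy lactating Holstein cows, 1 library of each sample type per cow, with no treatment. Serum RNA was extracted with the Norgen total RNA kit, and exosomes were isolated from a larger volume of the same sera and their RNA extracted with Invitrogen kits. Sample type and kit therefore cannot be told apart in these data. Levels were given in RPM, reads scaled to the summed miRNA reads of a library, which is a share of those reads and not an amount per volume of serum.

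A miRNA loads into an Argonaute protein and lowers the output of mRNAs that pair with its seed, a short stretch near its 5′ end. The miR-30 members share a seed and differ elsewhere, so they can act on overlapping targets. The family is abundant in many tissues, including kidney, heart and fat, and is known for restraining fibrosis and the epithelial to mesenchymal transition, with SNAI1 and CTGF among its targets. It also acts on RUNX2 in the choice between bone and fat cell fates, and miR-30a is known to act on the autophagy gene BECN1. In the RefSeq table of the ARS-UCD2.0 assembly the 6 miR-30 genes lie as neighbouring pairs, MIR30A with MIR30F, MIR30B with MIR30D and MIR30C with MIR30E, with 0 genes listed between the members of each pair. MIR30C and MIR30E both fall within the span of NFYC, a subunit gene of the NF-Y transcription factor.

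The sera gave 264769 to 590162 miRNA reads per library and the exosomes 60682 to 157710, so 1 read stood for 1.69 to 3.78 RPM in the former and 6.34 to 16.5 RPM in the latter. Of 365 expressed miRNAs, 128 had at least 10 reads in every library, and 5 of the 6 miR-30 members with reads were among them. Both libraries of cow 1 stood apart in muscle miRNAs, mainly in miR-133a. The 6 of these listed (miR-1, miR-133a, miR-133b, miR-206, miR-208b and miR-499) summed to 23097 RPM in the sera and 26301 RPM in the exosomes of cow 1, against 163.7 to 342.4 RPM in the other 6 libraries, and miR-206 was at 0 throughout. The 6 red blood cell miRNAs (miR-486, miR-451, miR-144, miR-16a, miR-16b and miR-92a) took 22.9 to 32.5% of the reads of the sera and 26.9 to 49.1% of those of the exosomes. The 3 liver miRNAs (miR-122, miR-192 and miR-193b) took 3.16 to 5.76% in sera and 2.22 to 5.73% in exosomes. Nearly all of this was miR-192, which averaged 48189 RPM in sera and 37236 RPM in exosomes. By contrast miR-122 averaged 58.7 and 24.75 RPM, and miR-193b 75.3 and 77.9 RPM. The 4 leukocyte and platelet miRNAs (miR-223, miR-142-5p, miR-142-3p and miR-150) took 3.02 to 3.94% in sera and 3.16 to 4.56% in exosomes. Between sample types, 2 of the 6 red blood cell miRNAs (miR-144 and miR-16a) were called, both higher in sera, beside 3.01% over all 365. That list was split in direction. miR-486 averaged 158802 RPM in sera and 267558 RPM in exosomes, and miR-92a also leaned to exosomes (log2 fold change -0.59), both without a call. In the muscle, liver, and leukocyte and platelet lists 0 miRNAs were called. Any part of these cell sources in the miR-30 values was not tested.

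The family was carried by 2 abundant members. In all 4 sera the order of levels was miR-30e-5p, miR-30d, miR-30a-5p, miR-30b-5p, miR-30c and miR-30f. The exosomes had miR-30c above miR-30b-5p in all 4 libraries, and miR-30d above miR-30e-5p in those of cows 1 and 3. miR-30b-3p, the other arm of the miR-30b hairpin, had 0 reads in the 8 libraries, which allows a level of up to 3 reads, worth 5.08 to 11.3 RPM in a serum library and 19.0 to 49.4 RPM in an exosome library.

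miR-30e-5p was at 17396.6, 15180.6, 20240.3 and 13549.6 RPM in sera, listed from cow 1 to cow 4 here and throughout. Its exosome libraries were at 17599.9, 12311.7, 16585.5 and 12028.4 RPM. It ranked between 12th and 18th of all miRNAs in every library. miR-30d, known as a miRNA secreted by the endometrium, was at 15933.2, 10822.5, 19923.0 and 11304.4 RPM in sera. Its exosome levels were 18951.3, 11321.5, 18537.9 and 11229.5 RPM. Both libraries of cows 1 and 3 lay above both libraries of cows 2 and 4 for these 2 members, and the ranges of sera and exosomes overlapped. The mean levels of miR-30d and miR-30e-5p differed by less than their spread over cows in either sample type. Serum means were 14496 ± 4289 and 16592 ± 2899 RPM and exosome means 15010 ± 4316 and 14631 ± 2874 RPM (SD, n = 4). Within libraries, miR-30e-5p was the higher in all 4 sera and in the exosomes of cows 2 and 4.

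miR-30a-5p, the member known for its action on BECN1, came next. Its sera held 5603.0, 7699.6, 5027.0 and 6894.8 RPM and its exosomes 6707.1, 5294.3, 3436.2 and 4895.1 RPM. Here cow 3 was the lowest in both sample types, the cow with the highest miR-30d in sera. In every library miR-30a-5p was below miR-30d and miR-30e-5p and above miR-30b-5p and miR-30c.

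miR-30b-5p, encoded beside miR-30d, was at 2279.4, 1875.8, 3244.3 and 1330.1 RPM in sera. Its exosomes held 1961.0, 1060.4, 1327.6 and 1128.7 RPM, so the sera were higher in each of the 4 cows while the ranges overlapped. miR-30c, which is known to act on CTGF in the heart, was at 1530.8, 1184.4, 2609.8 and 1206.7 RPM in sera. Its exosomes held 2175.3, 1458.1, 1513.1 and 1807.1 RPM, higher than the sera in 3 of 4 cows. The means of miR-30b-5p and miR-30c differed by less than the larger SD of the pair in either sample type. Serum means were 2182 ± 808 and 1633 ± 670 RPM and exosome means 1369 ± 410 and 1738 ± 329 RPM (SD, n = 4). Within libraries, miR-30b-5p was above miR-30c in all 4 sera and below it in all 4 exosomes.

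miR-30f was the rarest member with reads. Its sera held 71.1, 84.7, 64.2 and 65.0 RPM. Its exosomes held 65.9, 101.4, 48.8 and 76.1 RPM. These values rest on 17 to 50 reads per serum library and 4 to 13 per exosome library. Its spread over the 4 libraries was no larger than counting noise, with a chi-square per degree of freedom of 0.593 in sera and 0.724 in exosomes. The same measure was 84.0 to 477 in sera and 5.25 to 139 in exosomes for the other 5 members. Reads amplified by PCR are not independent molecules, so these measures and the intervals of shares cover counting error only.

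**Figure D1:**
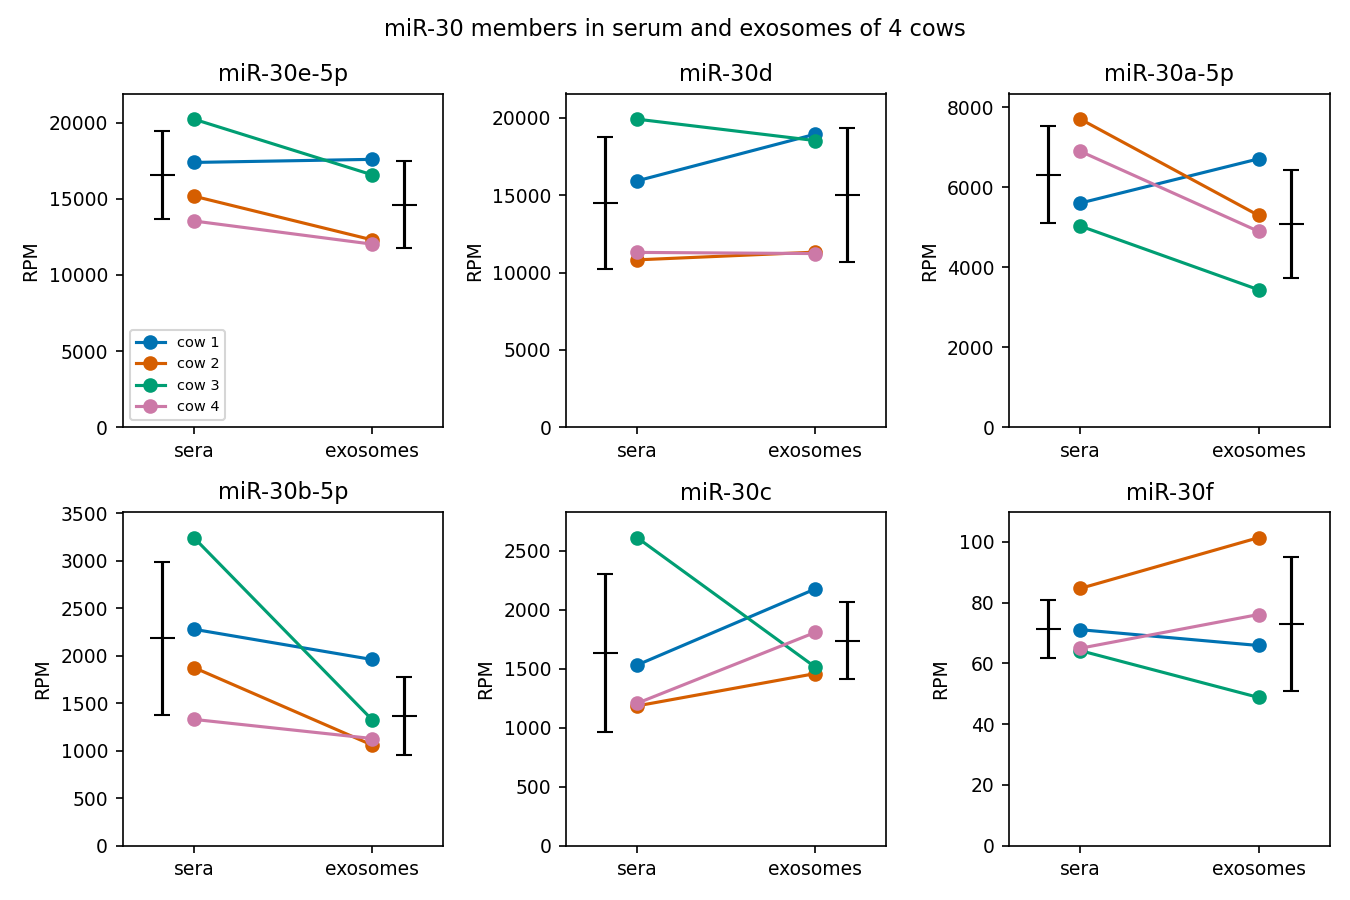
RPM of each miR-30 member (y axis, from 0, scaled per panel) in sera and exosomes (x axis), with a line joining the libraries of each cow and black marks for the mean ± SD of 4 libraries. miR-30d and miR-30e-5p of cows 1 and 3 lie above those of cows 2 and 4 in both sample types, and the lines of miR-30b-5p fall from sera to exosomes in 4 of 4 cows.

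Summed over its members, the family made up 4.28, 3.68, 5.11 and 3.44% of miRNA reads in sera. In exosomes it made up 4.75, 3.15, 4.14 and 3.12%. The means were 4.13 ± 0.745% and 3.79 ± 0.795% (SD, n = 4), a difference of 0.337 percentage points that is smaller than the spread within either sample type. The sera had the higher share in 3 of 4 cows. The widest 95% Wilson interval of a single library ran from 4.58 to 4.92%, at 2880 family reads in the exosomes of cow 1, and the intervals of the exosomes of cows 2 and 4 overlapped. Within the family, miR-30e-5p held 39.4 to 41.2% of the family's reads in serum libraries and 37.1 to 40.0% in exosome libraries. miR-30d held 29.4 to 39.0% and 35.9 to 44.7%, and miR-30a-5p held 9.84 to 20.9% and 8.29 to 16.8%. miR-30b-5p held 3.87 to 6.35% and 3.20 to 4.13%, and miR-30c 3.21 to 5.11% and 3.65 to 5.80%.

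**Figure D2:**
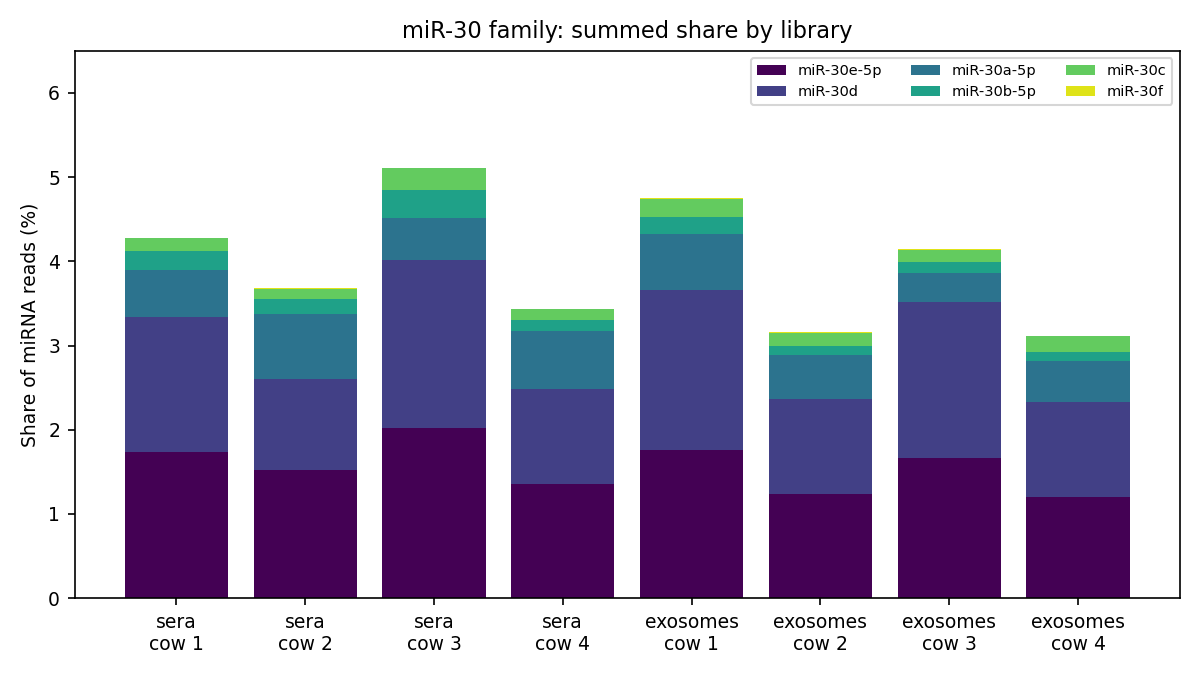
Share of all miRNA reads (y axis, percent) taken by each miR-30 member, stacked, in each of the 8 libraries (x axis, sample type and cow). The stack is highest in the sera of cow 3 at 5.11% and lowest in the exosomes of cow 4 at 3.12%, and miR-30e-5p and miR-30d fill most of each bar.

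The first question of the design was whether sera and exosomes differ. No miR-30 member was called between them. With limma on log2(RPM + 1), a call needed a change beyond 1 in either direction on the log2 scale, together with an adjusted p (false discovery rate, FDR) under 0.05 over all 365 expressed miRNAs. By this rule 0 of 6 members were called, beside 11 miRNAs (3.01%) higher in sera and 5 (1.37%) higher in exosomes over the whole table. An unadjusted limma p under 0.05 was found for 1 of 6 members and 94 of 365 miRNAs, and edgeR on the recovered reads gave 0 of 6 members and 18 of 365 miRNAs at an FDR under 0.05.

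miR-30b-5p had the largest difference among the members. Its log2 fold change of sera over exosomes was 0.64 (SE 0.28, 95% interval 0.04 to 1.24, FDR = 0.167 with limma). The sera held 1.16, 1.77, 2.44 and 1.18 times the level of the exosomes. miR-30a-5p followed at 0.33 (SE 0.23, interval -0.16 to 0.82, limma FDR = 0.393), with higher sera in 3 of 4 cows and higher exosomes in cow 1. miR-30e-5p was at 0.19 (SE 0.21, interval -0.27 to 0.64, limma FDR = 0.647). These 3 members had higher mean levels in sera. miR-30c was at -0.15 (SE 0.26, interval -0.71 to 0.41, limma FDR = 0.767), where cow 3 went against the others with sera 1.72 times its exosomes. miR-30d was at -0.05 (SE 0.26, interval -0.61 to 0.51, limma FDR = 0.945), and miR-30f at 0.00 (SE 0.46, interval -0.98 to 0.99, limma FDR = 0.998). The intervals of miR-30a-5p, miR-30c, miR-30d, miR-30e-5p and miR-30f all lay inside the limits of -1 and 1 on the log2 scale, and that of miR-30b-5p passed the upper limit.

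Exact two-sided permutation tests of the difference in mean RPM gave p = 0.114 for miR-30b-5p, 0.2 for miR-30a-5p and 0.429 to 0.886 for the other members with reads, where the smallest p that 4 against 4 libraries allow is 0.0286. Adjusted over the 365 miRNAs these permutation p-values were 0.421 to 0.989. Within cows, the exact sign-flip p of miR-30b-5p was 0.125, the smallest that 4 pairs allow. The RPM ranges of the sample types overlapped for all 6 members, while 14.2% of the 365 miRNAs had ranges that did not.

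When the fit took the cow as a replicate block, miR-30b-5p passed an FDR of 0.05, with a 95% interval of 0.38 to 0.90 on the log2 scale (limma, FDR = 9.5e-06; edgeR with the block, log2 fold change 0.44, FDR = 0.0132). miR-30a-5p also passed with limma (interval 0.11 to 0.56, FDR = 0.0192) and not with edgeR (FDR = 0.589). Both limma intervals use a variance pooled over miRNAs, so they do not give the spread of these members over cows. The log2 ratios of sera to exosomes within cows were 0.22, 0.82, 1.29 and 0.24 for miR-30b-5p. They were -0.26, 0.54, 0.55 and 0.49 for miR-30a-5p. miR-30c passed with edgeR alone, lower in sera (log2 fold change -0.36, FDR = 0.0472, against a limma FDR of 0.436). Over the table, 23.0% of miRNAs passed with limma and the block and were higher in sera, and 21.6% passed with edgeR and the block in either direction, so 2 of 6 members in each fit is near the background.

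Most miRNAs had a higher RPM in sera, which sets the scale for these values. The median log2 fold change was 0.57 over the 365 expressed miRNAs and 0.31 over the deeper 128, against 0.10 over the 6 members with reads. Fold changes over zero were found for 273 of 365 miRNAs and 4 of 6 members. Relative to the median of the 128, miR-30b-5p stood 0.33 higher in sera and miR-30a-5p 0.02 higher, while miR-30e-5p stood at -0.12, miR-30d at -0.36 and miR-30c at -0.46. The choice of scaling moved the median of the 365 from 0.57 to 0.12 with the trimmed mean of M-values (TMM) of edgeR, to -0.06 with DESeq2 and to -0.13 when reads were scaled to all sequences in analysis of the library (sequence scaling). Over these scalings and at equal depth, the offset of miR-30b-5p from the median of the 128 was 0.26 to 0.37 and that of miR-30c -0.51 to -0.42. Scaling turned the direction of miR-30e-5p to -0.02, -0.15 and -0.52 in these 3 scalings, and that of miR-30a-5p and miR-30b-5p to -0.38 and -0.07 with sequence scaling. With miR-486, the most abundant of the red blood cell miRNAs, left out of the totals, miR-30b-5p was at 0.44, miR-30a-5p at 0.13 and miR-30e-5p at -0.02. The calls over the table, 11 higher in sera and 5 higher in exosomes, became 6 and 8 with TMM, 3 and 13 with DESeq2 and 0 and 6 with sequence scaling. Of the called red blood cell miRNAs, miR-144 fell under the fold limit with TMM (log2 fold change 0.91), and miR-16a stayed past both limits (1.23, edgeR FDR = 0.0023).

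**Figure D3:**
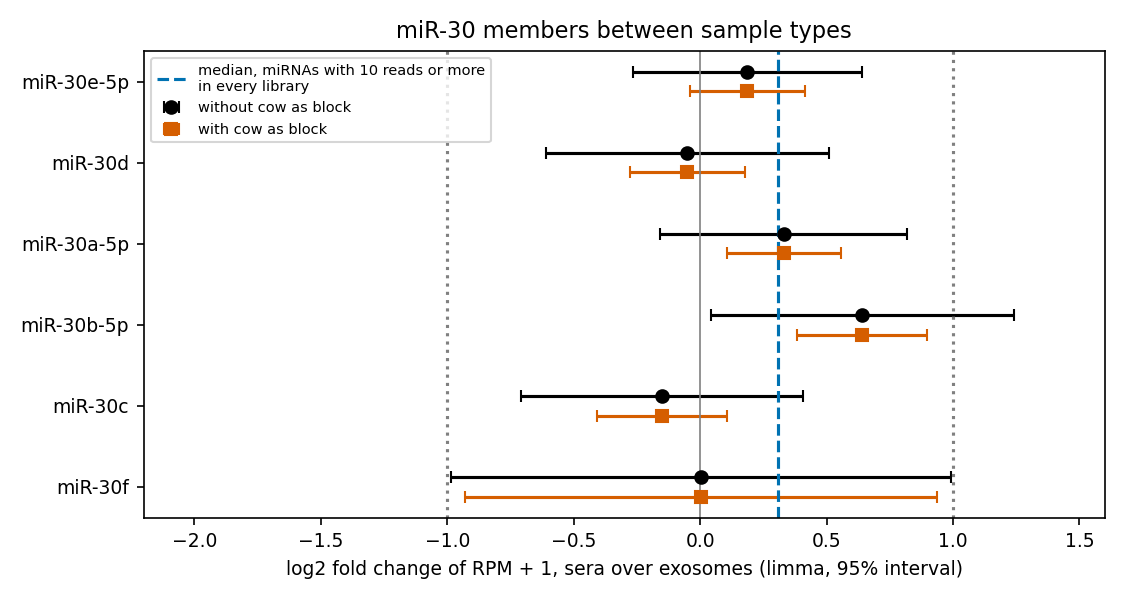
Log2 fold change of sera over exosomes for each miR-30 member (x axis, limma on RPM + 1, bars are 95% intervals) without the cow as a block (black circles) and with it (orange squares). Dotted lines mark the limits of -1 and 1 and the dashed blue line the median of 0.31 over the 128 deeper miRNAs. miR-30b-5p lies farthest right at 0.64, and its interval leaves zero in both fits. The orange intervals use a variance pooled over miRNAs and do not give the spread of a member over cows.

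The second comparison asked whether the cows differ, using the fact that both libraries of a cow came from the same serum. Cow means over both sample types differed for 5 members, in the order miR-30d, miR-30b-5p, miR-30a-5p, miR-30e-5p and miR-30c by F. The order of the cows was not the same in sera and exosomes for any of these 5. The limma F-test of cow, with sample type in the model, called 5 of 6 members at an FDR under 0.05, against 25.5% of the 365 miRNAs. All 5 members with at least 10 reads in every library were called, against 59.4% of the 128 such miRNAs over the table. The test takes both libraries of a cow as its replicates, so its p-values are measured against the disagreement of those libraries, pooled over miRNAs of similar level. A member's own disagreement had little weight in it. A cow difference called here belongs to the serum drawn from a cow. With 1 draw per cow it cannot be told apart from a lasting difference between animals.

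miR-30d had the strongest cow difference, with a span of 1.74-fold between the lowest and highest cow (F = 12.9, limma FDR = 4.5e-07). Its call held without each library and without each cow in turn, with FDR up to 0.00433. miR-30b-5p spanned 1.72-fold (F = 9.22, FDR = 4.2e-05), and its call was lost without the sera of cow 4 (FDR = 0.0868) and without both libraries of cow 4 (0.06). miR-30a-5p spanned 1.54-fold (F = 6.04, FDR = 0.00234) with the order of cows in sera the reverse of that of miR-30d, which the exosomes did not repeat. Its call was lost without the exosomes of cow 3 (FDR = 0.345), the exosomes of cow 4 (0.0535) or the sera of cow 4 (0.0633). Without both libraries of cow 3 its span fell from 0.62 to 0.14 on the log2 scale (FDR = 0.821). miR-30e-5p spanned 1.44-fold (F = 4.94, FDR = 0.00996). It was not called without the sera of cow 3 (FDR = 0.0608), the sera of cow 4 (0.198), the exosomes of cow 4 (0.196), or both libraries of cow 3 (0.0735) or cow 4 (0.237). miR-30c spanned 1.51-fold (F = 4.36, FDR = 0.0197) and was not called without the sera of cow 2, 3 or 4 or the exosomes of cow 2 or 4 (limma FDR 0.0938 to 0.244). Its call also ended with pseudocounts of 0.1 and 10 (FDR = 0.158 and 0.122), with no filter on low values (0.0593), with DESeq2 (0.574) and without miR-486 in the totals (0.291). miR-30f, with few reads, had F = 0.385 and an FDR of 0.85.

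The median span over cows was 0.62 on the log2 scale for the 5 deeper members and 0.72 for the 128 miRNAs of like depth. Without both libraries of cow 1, the cow with high muscle miRNAs, all 5 members were still called. Without the sera of cow 4 only miR-30d was called, without the exosomes of cow 4 miR-30d and miR-30b-5p, and without the sera of cow 3 miR-30d, miR-30b-5p and miR-30a-5p. edgeR with TMM called 90 of 365 miRNAs between cows and 3 members, miR-30a-5p (FDR = 1.1e-05), miR-30d (FDR = 0.00737) and miR-30b-5p (FDR = 0.0187). With sequence scaling 0 of 6 members and 5 of 365 miRNAs were called, and at an equal depth of 60682 reads 0 members and 16 miRNAs. The limma FDR of miR-30d was then 0.99 and 0.0966.

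Ratios between members of the same library do not depend on the total it is scaled to. The ratio of miR-30b-5p to miR-30c was singled out after its values were seen. Its sera gave 1.49, 1.58, 1.24 and 1.10. Its exosomes gave 0.901, 0.727, 0.877 and 0.625. All 4 sera lay above 1 and all 4 exosomes below it, a 1.73-fold difference in the same direction in 4 of 4 cows. In reads, miR-30b-5p made up 52.4 to 61.3% of the reads of this pair in sera and 38.4 to 47.4% in exosomes, and 3 libraries (sera of cow 4, exosomes of cows 1 and 3) had 95% Wilson intervals that included 50%. The ratio of miR-30b-5p to its neighbour miR-30d also separated the sample types, with 0.143, 0.173, 0.163 and 0.118 in sera and 0.103, 0.0937, 0.0716 and 0.101 in exosomes. Among the 10 pairs of the 5 deeper members, 2 had ranges that did not overlap, and 20.8% of the 7750 pairs among the deeper miRNAs did the same, so the share among the members is that of the table.

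The 2 ratios given next are those of the 10 pairs of deeper members that had the same order of cows in both sample types. miR-30a-5p over miR-30d was 0.352, 0.711, 0.252 and 0.610 in sera and 0.354, 0.468, 0.185 and 0.436 in exosomes. Both sample types put cow 3 lowest, then cow 1, cow 4 and cow 2. miR-30d over miR-30e-5p was 0.916, 0.713, 0.984 and 0.834 in sera and 1.08, 0.920, 1.12 and 0.934 in exosomes. It was higher in exosomes in all 4 cows with overlapping ranges, and it kept 1 order of cows in both sample types. These 2 were the only ones of the 10 pairs with the same order of the 4 cows in both sample types. Over the 7750 pairs 23.0% had it, so the share among the members is near that of the table. How reads that match several members alike were assigned is not given in the sources used here, and the ratios of members of similar sequence depend on it.

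**Figure D4:**
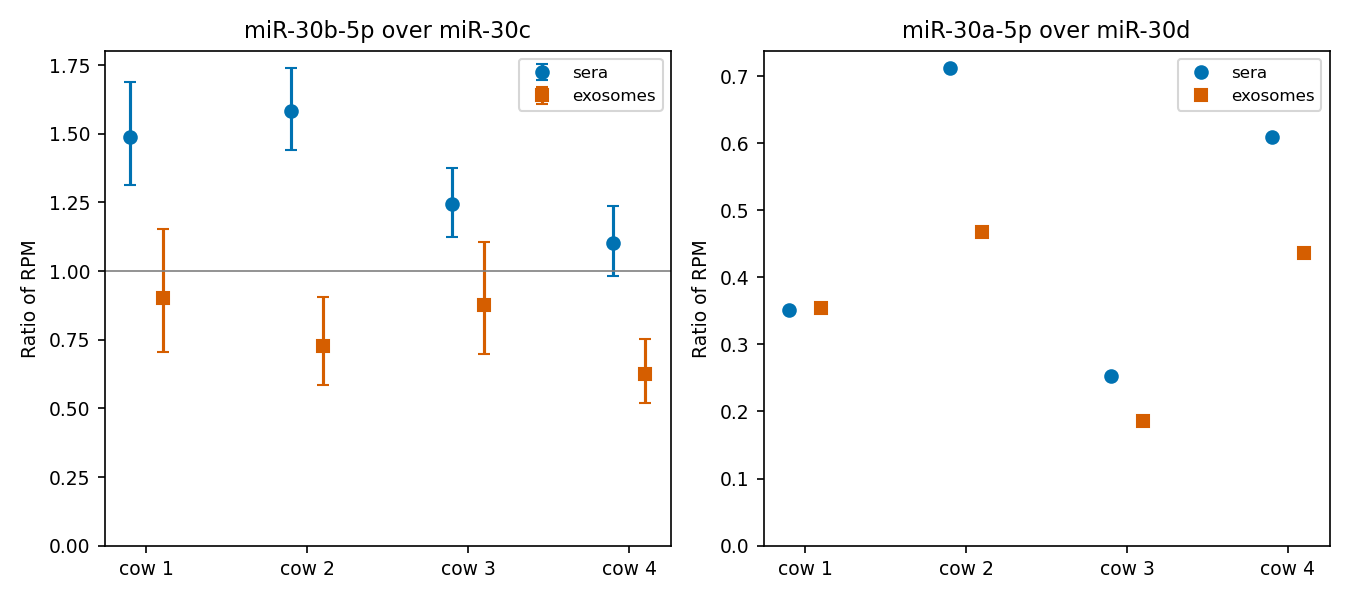
Ratio of RPM (y axis, from 0) of miR-30b-5p to miR-30c (left, bars are 95% Wilson intervals from reads) and of miR-30a-5p to miR-30d (right, no intervals) for each cow (x axis) in sera (blue circles) and exosomes (orange squares). On the left the sera span 1.10 to 1.58 and the exosomes 0.625 to 0.901; on the right both sample types have cow 3 lowest and cow 2 highest.

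The closest companion of each deeper member over the 8 libraries was a miRNA outside the family, where candidates far outnumber the members. An outside miRNA in first place is therefore no result about the family. Set among the outside miRNAs, the nearest other member took place 3 for miR-30d, 7 for miR-30c and 11 for miR-30e-5p. It took place 15 for miR-30b-5p and 39 for miR-30a-5p. Likeness was measured as the SD of the log2 ratio of RPM to each of 120 other miRNAs of that depth, and is given as a description. miR-30e-5p was followed most closely by miR-22-3p (SD 0.0984, miR-22-3p at 6.56 to 7.83 times its level) and by miR-191 (SD 0.0992), a miRNA often used as a reference in qPCR, while the median SD over the 120 was 0.465. Of 125 such miRNAs, 11 had a closer nearest companion than miR-30e-5p, 47 than miR-30d, 82 than miR-30c, 85 than miR-30a-5p and 94 than miR-30b-5p, with a median nearest SD of 0.196. miR-30d was followed by miR-191 (SD 0.165) and let-7f (SD 0.203), and then by miR-30e-5p (SD 0.205). miR-30a-5p was closest to miR-192, a liver and gut miRNA that is in the liver list (SD 0.239), and to miR-15b (SD 0.242). miR-30b-5p was closest to miR-29c (SD 0.256) and miR-151-5p (SD 0.257), and miR-30c to miR-98 of the let-7 family (SD 0.233) and miR-425-5p (SD 0.266). The summed family was closest to miR-22-3p (SD 0.10, at 2.56 to 3.18 times the family) and miR-191 (SD 0.109). All 8 libraries share the scaling to miRNA reads.

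Other miRNAs known to restrain fibrosis or the epithelial to mesenchymal transition were read beside the family, namely miR-29a, miR-29b, miR-29c, miR-26a, miR-26b, miR-133a, miR-133b, miR-200a, miR-200b, miR-200c, miR-141 and miR-429. Of these 12, 2 were called higher in sera and 0 higher in exosomes, beside 3.01% and 1.37% over the table. miR-26b averaged 2524 ± 696 RPM over the sera and 1177 ± 158 RPM over the exosomes (SD, n = 4), a log2 fold change of 1.07 (limma FDR = 0.0111). miR-200a, of the miR-200 family that acts on ZEB1 and ZEB2, averaged 563 ± 146 and 247 ± 89.3 RPM (log2 fold change 1.22, limma FDR = 0.0337). With edgeR and TMM, miR-26b fell under the fold limit (log2 fold change 0.87, FDR = 0.0196). miR-200a stayed just past both limits there (1.005, FDR = 0.0494). The median log2 fold change of the list was 0.63, close to the 0.57 of all 365 miRNAs, and 8 of the 12 were called between cows, beside 25.5% of the 365 and 59.4% of the 128 deeper miRNAs. miR-133a and miR-133b are also in the muscle list that was high in cow 1.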

How the data were processed

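Small RNA libraries from 4 sera and 4 exosome preparations were sequenced, and the deposited values are RPM, which the authors made with sRNAbench after CASAVA 1.8 filtering by aligning each library to bovine miRBase miRNAs. The values of a table sum over the 534 miRNAs to the constant of the unit, and 100% of the values were whole reads within 0.06 RPM, so reads were recovered. miRNAs with more than 1 RPM in at least 2 libraries of either sample type (365) were tested with limma 3.58.1 (R 4.3.3) on log2(RPM + 1), by sample type and, with sample type in the model, by cow, with Benjamini-Hochberg adjustment. Exact permutation tests went through every assignment of libraries, and SciPy 1.17.1 gave the adjustment of their p-values and the Wilson intervals. edgeR 4.0.16 and DESeq2 1.42.0 on the recovered reads were alternatives, and scripts were tested on simulated data. Samples were grouped by the labelled title and component. Both libraries of a cow come from the same serum by the study's methods, and same-cow libraries deviated together (r = 0.740 to 0.860, other cows -0.501 to 0.195, over 128 miRNAs). The p-values of the fits by sample type alone are measured against the spread between the cows' single samples. Those of the cow test and of the fits with the cow as a block are measured against the disagreement of sera and exosomes within cows, pooled over miRNAs. The cow test and the block fits leave 3 residual degrees of freedom per miRNA. In limma their variance came almost wholly from miRNAs of similar level, so a member's own disagreement had little weight. The SE of the limma fit with the block was 0.115 to 0.131 for the 5 deeper members. Named miRNAs were all members, for each deeper member and the summed family the 2 non-members with the smallest SD of the log2 ratio, and listed miRNAs past the thresholds. Members and lists were chosen with earlier results of these data known.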

Additional observations from a re-analysis of the deposited data

How the results depend on the processing

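Under every alternative tried, 0 miR-30 members passed both the fold limit and an FDR of 0.05 between sample types. With the replicate block by cow, members passing an FDR of 0.05 at any fold went from 0 to 2 with limma and 2 with edgeR, and calls over the table became 29 higher in sera with limma and 13 higher in exosomes with edgeR. The block changed no other call of a member. Calls higher in sera were 6 with edgeR and TMM, 3 with DESeq2, 6 without miR-486 in the totals, 0 with sequence scaling and 4 at equal depth, against 11. Calls higher in exosomes were 8, 13 and 3 with edgeR, DESeq2 and equal depth, against 5. Leaving out a library or a cow gave 2 to 18 calls higher in sera, 3 to 5 higher in exosomes and 58 to 123 between cows, against 93, with 5 with sequence scaling and 16 at equal depth. Members called between cows were 3 with edgeR and TMM, 0 with sequence scaling and 0 at equal depth, and 1 to 5 with a library or cow left out. The low counts were 1 without the sera of cow 4, 2 without the exosomes of cow 4, 3 without the sera of cow 3, and 2 without cow 3 or without cow 4. Sequence scaling and TMM keep the same libraries and reads, whereas equal depth and the left-out libraries or cows have fewer. The cause of the lower counts was not tested.

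Directions between sample types turned for miR-30a-5p (-0.38) and miR-30b-5p (-0.068) with sequence scaling. miR-30e-5p turned to -0.021 with TMM, to -0.018 both with TMM and the replicate block and without miR-486, to -0.15 with DESeq2 and to -0.52 with sequence scaling. miR-30f turned to -0.00056 with a pseudocount of 10, -0.28 with TMM with or without the replicate block, -0.050 with edgeR on library totals, -0.40 with DESeq2, -0.20 without miR-486, -0.61 with sequence scaling and -0.83 at equal depth. Without single libraries or cows, miR-30d ranged from -0.22 to 0.077 and miR-30f from -0.17 to 0.18. Alternatives without both libraries of a cow, and those for the ratio of miR-30b-5p to miR-30c (log2 difference 0.77 at equal depth and 0.69 to 0.89 without single libraries, against 0.79), were chosen after seeing the data. The 4 to 13 reads of miR-30f per exosome library limit what its exosome levels can show.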
